A study of Mus musculus with 6 samples.

Results

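The nuclear-encoded subunits of oxidative phosphorylation (OXPHOS) were followed in liver RNA-seq of 3 LT mice and 3 mice labelled Fpn-LKO. Members were taken by name, as protein-coding rows of the deposited gene table whose symbols begin with Nduf, Uqcr, Cox4 to Cox8 or Atp5, together with Sdha, Sdhb, Sdhc, Sdhd, Cycs and Cyc1. This gave 97 of the 45777 genes listed, namely 38 subunits of complex I, 8 complex I assembly factors, 4 subunits of complex II, 9 of complex III, cytochrome c, 20 subunits or isoforms of complex IV and 17 subunits of complex V. The rule used no measured value. Of the 97 genes, 91 passed the filter on low counts, which removed genes with 0 reads in more than 1 library, and 6 complex IV isoforms did not.

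Oxidative phosphorylation takes place in the inner mitochondrial membrane. Complexes I and II pass electrons from NADH and succinate to ubiquinone, complex III passes them on to cytochrome c, and complex IV gives them to oxygen, while complexes I, III and IV pump the protons that drive ATP synthesis by complex V. Most subunits are encoded in the nucleus and imported, and a small core of complexes I, III, IV and V is encoded in mitochondrial DNA. The chain depends on iron, since complexes I, II and III hold iron-sulphur clusters and complexes II, III and IV and cytochrome c hold haem. Hepatocytes are rich in mitochondria and oxidise fatty acids through this chain.

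All mice were male C57BL/6 fed a high-fat diet (HFD), which the methods start in young adult mice. LT mice were littermates carrying the floxed ferroportin allele (Fpn flox/flox) without Cre, and Fpn-LKO mice carried Alb-Cre and the same floxed allele (Alb-Cre; Fpn flox/flox). The albumin promoter restricts the deletion to hepatocytes, whereas whole liver was sequenced, so other liver cells kept the gene. Per the methods, the floxed allele came from a 129S strain and the mice were backcrossed to C57BL/6J, and the labels place all 6 libraries in 1 batch. The methods also measured oxidative phosphorylation transcripts by qPCR, and the sequencing comparison here covers every complex.

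The total counts on genes lay between 43086184 and 47778683 per library. Members took 0.900% to 1.04% of the counts of a library, and 81 of them had a mean of at least 20 CPM (counts per a common library size, scaled by the TMM method), with no fewer than 964 reads in any library. Slc40a1, the gene of ferroportin, had 154, 180 and 126 CPM in LT livers. It had 143, 143 and 176 CPM in livers labelled Fpn-LKO (LKO-labelled livers from here on). Its log2 fold change was 0.0073 (unadjusted p = 0.965, quasi-likelihood test of edgeR). Lower expression was thus not visible in these counts, and directions rest on the labels. Tfrc, the transferrin receptor, had 28.0 to 52.6 CPM in LT livers and 13.1 to 18.9 CPM in LKO-labelled livers (unadjusted p = 0.00133, adjusted p = 0.570, quasi-likelihood test of edgeR). Hepatocyte markers (5 of 5 found) summed to 55968 to 70111 CPM in LT livers and 57427 to 66344 CPM in LKO-labelled livers. Among other cell types, 1 of 5 erythroid genes and the 1 adipocyte gene tested had an unadjusted p under 0.05 by edgeR's test. The Kupffer cell, endothelial, stellate, cholangiocyte, pancreas and muscle lists had 0, and the share over all genes tested was 4.8%. Erythroid sums were 351 to 941 CPM in LT livers and 474 to 1243 CPM in LKO-labelled livers. Adipocyte sums were 1.93 to 3.31 and 3.28 to 7.63 CPM. The part of these markers in the results was not tested. Of the adipocyte markers, Adipoq, Plin1 and Ucp1 had no read in any library, so the adipocyte sums come from the 1 other gene.

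Promoter sequences were examined for letters bound by the nuclear factors classically tied to these genes. Nuclear respiratory factor 1 (NRF1), the ETS factor GABP (also called NRF2) and YY1 bind promoters of many respiratory chain genes, and oestrogen-related receptors (ERR) act with the coactivator PGC-1α. Windows from RefSeq (GRCm38.p6), reaching from 250 bases before to 50 bases after a gene's start, were found for 78 of the 97 members. The windows of Sdhb, Uqcrh, Uqcr11, Atp5k and Ndufa8 are shown because these genes, described further on, had count levels that did not overlap between the groups and hold NRF1 or ETS matches. Cox7c, Ndufa1 and Ndufa13 also did not overlap between the groups, but their windows held no match and are not shown. Letters in capitals mark NRF1 or ETS matches on either strand, and each window is written 5′ to 3′ along the gene. The Sdhb window is chr4:140961021-140961320 on the plus strand, that of Uqcrh is chr4:116075021-116075320, that of Uqcr11 is chr10:80406772-80407071, that of Atp5k is chr5:108434350-108434649 and that of Ndufa8 is chr2:36049289-36049588, all 4 on the minus strand.
Sdhb: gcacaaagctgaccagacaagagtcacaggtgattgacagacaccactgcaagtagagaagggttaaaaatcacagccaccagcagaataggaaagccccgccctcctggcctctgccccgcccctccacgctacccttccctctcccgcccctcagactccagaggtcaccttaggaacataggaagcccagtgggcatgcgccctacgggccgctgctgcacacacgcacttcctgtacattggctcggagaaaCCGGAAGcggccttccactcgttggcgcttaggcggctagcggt
Uqcrh: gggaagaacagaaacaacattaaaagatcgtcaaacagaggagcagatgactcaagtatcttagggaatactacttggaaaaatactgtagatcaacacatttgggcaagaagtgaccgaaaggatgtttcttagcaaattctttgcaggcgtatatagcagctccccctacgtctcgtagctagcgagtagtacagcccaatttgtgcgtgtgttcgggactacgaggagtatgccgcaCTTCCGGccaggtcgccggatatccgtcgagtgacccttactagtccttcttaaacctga
Uqcr11: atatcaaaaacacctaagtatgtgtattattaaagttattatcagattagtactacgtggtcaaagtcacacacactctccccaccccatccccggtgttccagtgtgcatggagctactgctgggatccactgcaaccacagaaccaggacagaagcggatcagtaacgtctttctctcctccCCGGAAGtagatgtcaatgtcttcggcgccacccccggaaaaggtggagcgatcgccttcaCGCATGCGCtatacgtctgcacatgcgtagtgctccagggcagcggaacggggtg
Atp5k: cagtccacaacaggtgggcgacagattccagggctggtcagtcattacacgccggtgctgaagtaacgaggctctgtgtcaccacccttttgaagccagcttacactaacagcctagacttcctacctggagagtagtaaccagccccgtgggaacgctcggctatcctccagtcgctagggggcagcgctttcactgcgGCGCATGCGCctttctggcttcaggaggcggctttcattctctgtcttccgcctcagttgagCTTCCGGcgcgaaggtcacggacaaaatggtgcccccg
Ndufa8: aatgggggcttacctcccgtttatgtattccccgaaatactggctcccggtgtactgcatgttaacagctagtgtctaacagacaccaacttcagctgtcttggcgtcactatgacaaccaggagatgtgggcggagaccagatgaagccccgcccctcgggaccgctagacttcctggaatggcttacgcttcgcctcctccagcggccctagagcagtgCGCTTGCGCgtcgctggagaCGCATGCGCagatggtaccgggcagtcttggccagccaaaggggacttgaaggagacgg

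With the start site counted as 0, the Sdhb window held 1 ETS match, whose first base lay at position 6, and the Uqcrh window 1 from position -10. Uqcr11 held an ETS match from position -66 and an NRF1 match from position -5. In Atp5k, 2 NRF1 matches on opposite strands overlapped from positions -50 and -49, and an ETS match began at position 12. Ndufa8 held 2 NRF1 matches, from positions -29 and -9, and no ETS match. Sdhb and Uqcrh thus held only ETS letters and Ndufa8 only NRF1 letters, whereas Uqcr11 and Atp5k held both.

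Across the members, the NRF1 letters GCGCANGCG were found in 23 of 78 genes (29.5%), against 14.4% of 10586 tested protein-coding genes and 7.03% of all 27025 genes with a window. The ETS letters CCGGAAG occurred in 19 members (24.4%), against 19.1% and 9.93%. YY1 letters, AAGATGGCG, occurred in 8 members (10.3%), against 3.36% and 1.64%, and the ERR letters TCAAGGTCA in 2 members, Atp5g3 and Sdhd (2.56%), against 0.340% and 0.466%. Both strands were searched, and a gene with several windows counted once. At least 1 of the NRF1, ETS and YY1 strings was present in 41 members (52.6%), against 32.2% of tested protein-coding genes. A match is a run of letters and says nothing of binding. The fitted log2 fold change, LKO-labelled over LT, had a median of -0.0056 over the 23 tested members with NRF1 letters and 0.058 over the 52 without. The same medians were 0.081 over 19 members with ETS letters and 0.043 over 56 without, and 0.020 over 8 with YY1 letters and 0.058 over 67 without. How far these medians rest on single mice was not examined, and the part of the letters in the results was not tested.

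No tested OXPHOS transcript passed the test between the groups. By edgeR's quasi-likelihood test, 0 of the 91 tested members had a Benjamini-Hochberg adjusted p under 0.05 (range of adjusted p, 0.982 to 0.999), against 0.0232% of the 17274 genes tested. At an unadjusted p under 0.05 the count was also 0 of 91, against 4.8% of all genes tested, and the smallest unadjusted p, 0.0708, belonged to Ndufa1. DESeq2's Wald test and edgeR's exactTest likewise gave 0 members at either threshold. Log2 fold changes were positive for 56 members and negative for 35, with a median of 0.040, beside a median of -0.0040 over all genes tested. Among the 81 members with a mean of at least 20 CPM they ran from -0.15 for Ndufa8 to 0.26 for Ndufa6.

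The data bounded these differences more tightly than for most genes. The 95% confidence interval of the fold change lay within 1.5-fold in both directions for 85 of 91 members (93.4%), against 34.0% of all genes tested. Within 2-fold the counts were 89 members (97.8%) and 59.0% of genes. The contrast was smaller above a common floor of 20 CPM. That floor did not match abundance, with a median of 126 TPM for members and 20.9 TPM for all genes above it. Among genes with a mean of at least 20 CPM 73.1% had intervals within 1.5-fold, beside 79 of 81 members (97.5%) at that level. The median spread within groups was 0.115 on the log2 scale for members, 0.167 for genes with at least 20 CPM and 0.219 for all genes tested. A p that misses the threshold does not show that levels were equal, and differences smaller than these intervals were not detectable with 3 mice a group.

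**Figure D1:**
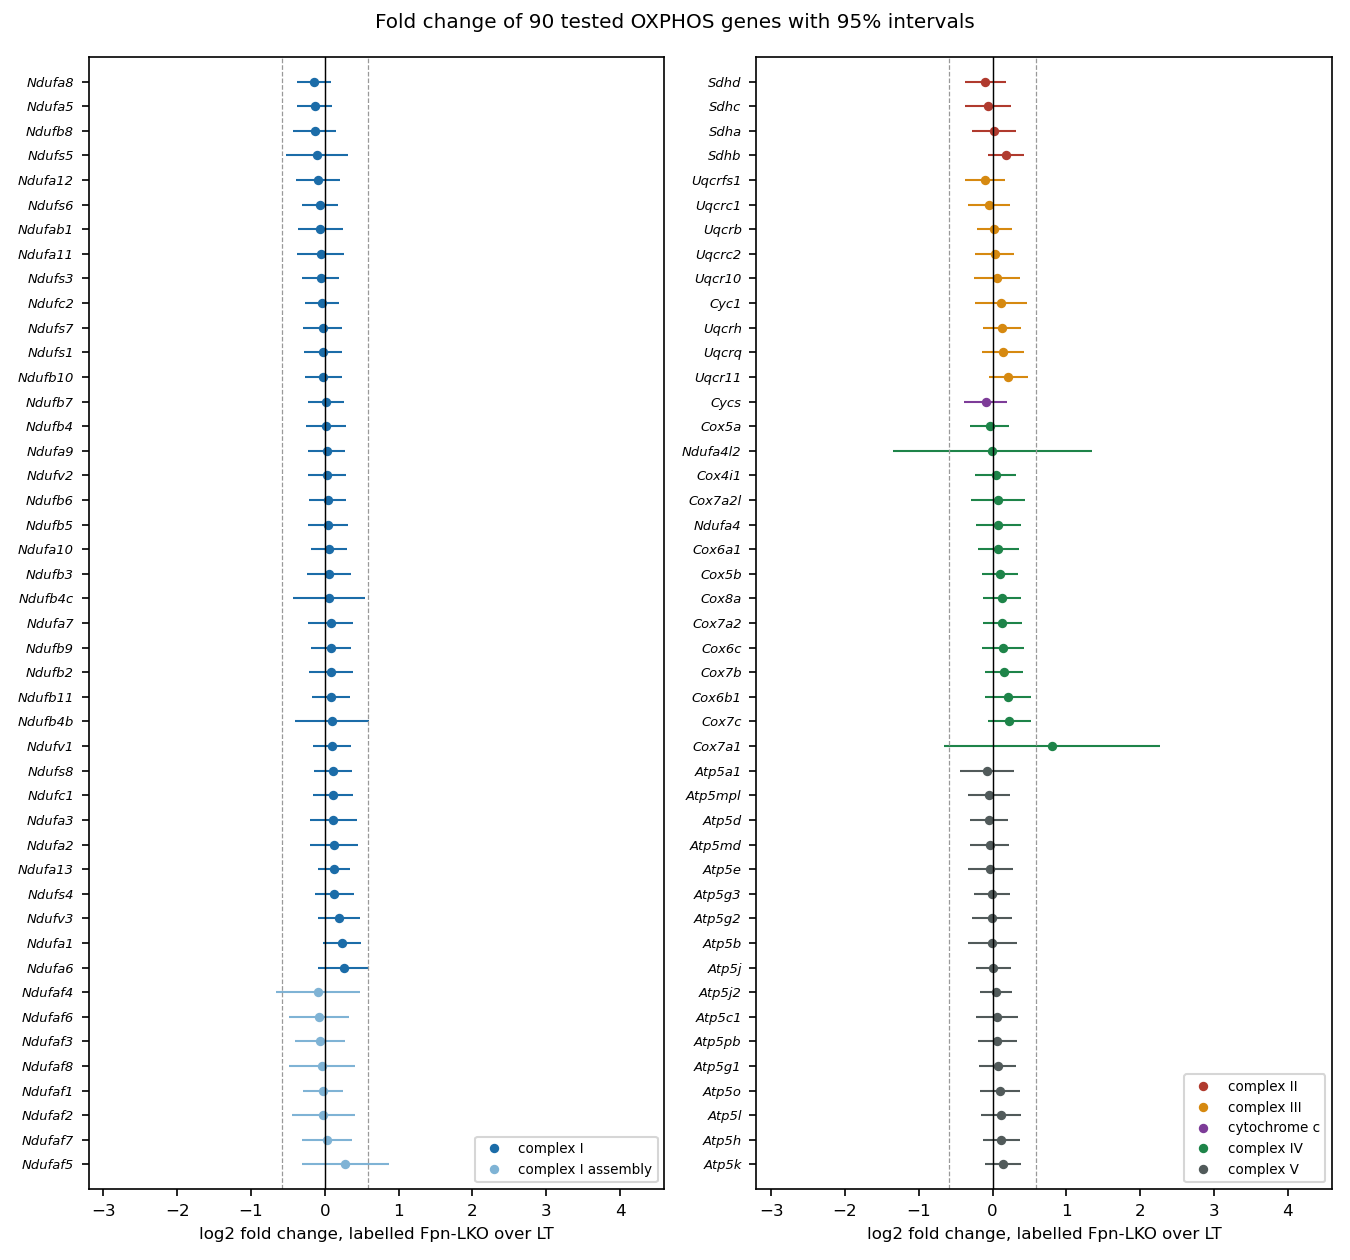
Fitted log2 fold change of 90 of the 91 tested members, LKO-labelled over LT (x axis), by gene and complex (y axis), from 3 mice a group. Points are estimates, bars 95% confidence intervals and dashed lines a 1.5-fold difference. All 90 bars cross 0, and the widest belong to Cox7a1 and Ndufa4l2, each with a mean under 1 CPM.

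Complex I, the NADH dehydrogenase, had 38 members, all tested, with 24 positive and 14 negative log2 fold changes and a median of 0.039, which turned to -0.029 without LT replicate 2. Its 7 nuclear-encoded core subunits, which carry the electron path, had a median of -0.023, and the 31 accessory subunits, which surround and stabilise the core, had one of 0.054. Without LT replicate 2 these medians were -0.080 and -0.014, and that of the core turned positive without any 1 of LT replicates 1 and 3 and Fpn-LKO replicates 2 and 3, at 0.023, 0.028, 0.00072 and 0.0064. Per length, Ndufb9, an accessory subunit of the membrane arm, was the most abundant, at 279 ± 34.0 TPM in LT livers and 313 ± 21.5 TPM in LKO-labelled livers (SD, n = 3 each). Ndufa6, an accessory subunit of the LYR protein family, had the largest positive log2 fold change of the complex at 0.26. Its levels were 109, 77.0 and 93.9 CPM in LT livers and 117, 102 and 116 CPM in LKO-labelled livers. The groups overlapped, with LT replicate 1 above Fpn-LKO replicate 2 and LT replicate 2 the lowest.

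Ndufa1, a small membrane-arm subunit encoded on the X chromosome, came nearest to the unadjusted threshold. Ndufa1 had 36.3, 33.7 and 40.8 CPM in LT livers and 42.7, 42.1 and 45.5 CPM in LKO-labelled livers, a log2 fold change of 0.23 (standard error 0.11, 95% interval -0.025 to 0.49, adjusted p = 0.982). All 3 LKO-labelled livers lay above all 3 LT libraries. Ndufa13, also known as GRIM-19, had 88.8, 90.8 and 94.0 CPM in LT livers and 102, 96.2 and 100.3 CPM in LKO-labelled livers, again without overlap (log2 fold change 0.12, adjusted p = 0.983). Ndufa8, a twin-CHCH subunit on the intermembrane-space side, was the only member tested whose groups separated downward, with 33.0, 33.9 and 34.9 CPM in LT livers and 28.8, 31.8 and 31.1 CPM in LKO-labelled livers. Its log2 fold change was -0.15 (standard error 0.098, 95% interval -0.38 to 0.078, adjusted p = 0.982 by the edgeR test).

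Non-overlap of this kind was found in 7 members upward (Ndufa1, Ndufa13, Sdhb, Uqcrh, Uqcr11, Cox7c and Atp5k) and 1 downward, 8 of 91 in all. Over all genes tested 10.6% did not overlap, 5.25% upward and 5.34% downward, so the share among members was near the background. With 3 mice against 3, the exact two-sided permutation test of 1 gene cannot give a p below 0.1. Groups that do not overlap always give that value, as Ndufa1, Ndufa8, Ndufa13, Sdhb and Uqcr11 did, so it adds nothing to the non-overlap.

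The 8 complex I assembly factors, Ndufaf1 to Ndufaf8, act in building the complex and are not part of it. They were less abundant than most subunits, with means from 2.38 TPM for Ndufaf5 to 23.0 TPM for Ndufaf1. Their median log2 fold change was -0.030, with 2 positive and 6 negative values. That median turned to 0.079 without LT replicate 3 and 0.014 without Fpn-LKO replicate 3, and was -0.092 without LT replicate 2. Ndufaf5 had the largest positive value, 0.28, with 2.67, 4.06 and 4.91 CPM in LT livers and 4.36, 4.88 and 4.83 CPM in LKO-labelled livers. Ndufaf4 had the most negative, -0.092, and its libraries spread from 33.1 to 55.2 CPM within LT alone, wider than the difference between the groups.

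Complex II, succinate dehydrogenase, is the only complex whose subunits are all nuclear-encoded, and its 4 genes gave log2 fold changes from -0.095 to 0.18. Sdhb, the iron-sulphur subunit, had 161, 157 and 166 CPM in LT livers and 192, 178 and 180 CPM in LKO-labelled livers. The groups did not overlap, and the log2 fold change was 0.18 (standard error 0.10, 95% interval -0.055 to 0.42, adjusted p = 0.982, quasi-likelihood test of edgeR). Sdha, the flavoprotein that oxidises succinate, had 295 ± 19.3 CPM in LT livers and 298 ± 30.2 CPM in LKO-labelled livers. Sdhc and Sdhd, the membrane anchors that hold a haem, had log2 fold changes of -0.059 and -0.095, with overlapping groups.

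In complex III, the cytochrome bc1 complex, 7 of 9 values were positive and the median was 0.058. It was -0.0060 without LT replicate 2 and 0.017 without Fpn-LKO replicate 3. Uqcr11, its smallest subunit, was also the most abundant per length, at 313 ± 44.2 TPM in LT livers and 386 ± 24.6 TPM in LKO-labelled livers. On the CPM scale Uqcr11 had 113, 98.1 and 112 in LT and 136, 120 and 119 in LKO-labelled livers, without overlap (log2 fold change 0.21, 95% interval -0.050 to 0.48, adjusted p = 0.982). Uqcrh, the hinge protein beside cytochrome c1, also did not overlap, but by a narrow margin, with 144, 122 and 139 CPM in LT against 144, 147 and 151 CPM. Uqcrfs1, the Rieske iron-sulphur protein, had the most negative value, -0.10, from 142 ± 9.74 to 132 ± 10.9 CPM. Cytochrome c itself (Cycs), the soluble carrier between complexes III and IV, had 125, 113 and 144 CPM in LT livers and 119, 113 and 126 CPM in LKO-labelled livers, a log2 fold change of -0.092 (95% interval -0.38 to 0.20).

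Complex IV, cytochrome c oxidase, had the highest median of the complexes. For its 12 ubiquitous subunits the median log2 fold change was 0.117, and 11 of the 12 values were positive. Cox7c, a small membrane subunit, had the largest, 0.23, with 157, 123 and 145 CPM in LT livers and 176, 159 and 163 CPM in LKO-labelled livers (95% interval -0.063 to 0.52, adjusted p = 0.982 by edgeR's test). These groups did not overlap, whereas those of the other 11 subunits did. Cox5a was the 1 subunit with a negative value, -0.038. LT replicate 2 was the lowest of the 6 libraries for all 12 subunits, and without it the median over the 14 tested genes of complex IV fell from 0.117 to 0.067. Per length, Ndufa4, long assigned to complex I and now placed in complex IV, had the highest level of the complex, at 521 ± 108 TPM in LT livers and 583 ± 32.9 TPM in LKO-labelled livers.

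Tissue-restricted isoforms of complex IV were close to absent. Cox4i2, Cox6a2, Cox7b2 and Cox8c had 0 reads in every library, which allows a level of up to 3 counts, or 0.0603 CPM in LT replicate 1. Cox8b, the heart and muscle isoform, had 4, 0 and 7 reads in LKO-labelled livers and none in LT, and 4 of the 6 muscle markers had no read. Cox7a1, also a muscle isoform, made up 0.222% to 1.84% of the summed TPM of Cox7a1 and Cox7a2. Ndufa4l2, a paralog of Ndufa4 known to be induced by hypoxia, had 0.17 to 0.60 CPM and a log2 fold change of -0.0034 with an interval from -1.35 to 1.34, so little can be said of it at this depth.

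Cox6b2, the testis-enriched partner of Cox6b1, was the member with the greatest contrast between the groups. Its row (chr7:4751792-4753094 in GRCm38) held 13, 164 and 80 reads in LT livers and 0 in each of the 3 LKO-labelled livers, or 0.261, 3.79 and 1.93 CPM against 0. The mean in LKO-labelled livers was at least 31.2-fold lower, taking a floor of 3 counts per library. This bound rested largely on LT replicate 2, without which it was 17.2-fold. All LT libraries had reads and no LKO-labelled liver did, although the LT libraries differed among themselves far more than for the ubiquitous subunits. With 0 reads in 3 libraries it did not pass the filter. The 4 alternatives that test it keep it only through its reads in LT livers, so their p-values are no evidence of a difference, and none passed the adjusted threshold (adjusted p from 0.202 to 0.604). The exact permutation test gave p = 0.1, as it always does for 3 mice against 3 without overlap, so it adds nothing to the read counts. Cox6b1, the ubiquitous form, had 155, 121 and 152 CPM in LT livers and 169, 153 and 172 CPM in LKO-labelled livers. No annotated gene overlaps Cox6b2. Its neighbour Kmt5c had 85, 131 and 110 reads in LT livers and 108, 53 and 85 reads in LKO-labelled livers, and Fam71e2 on its other side had none.

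Complex V, the ATP synthase, held the most abundant member of all, Atp5b, the catalytic β subunit. Atp5b had 691 ± 54.5 TPM in LT livers and 737 ± 63.4 TPM in LKO-labelled livers, and a log2 fold change from counts of -0.0043 (95% interval -0.34 to 0.33). Over 17 subunits the median was 0.013, with -0.031 for the 5 subunits of the F1 head and 0.056 for the 12 of Fo and the stalk. The first of these turned to -0.0066 without LT replicate 2 and the second to 0.017 without LT replicate 3, while the third fell to 0.023 without LT replicate 2. Atp5k, the membrane subunit e, had 73.8, 62.1 and 70.7 CPM in LT livers and 77.9, 74.3 and 75.9 CPM in LKO-labelled livers, without overlap (log2 fold change 0.14, adjusted p = 0.982 by edgeR's test). The α subunit, Atp5a1, had the most negative value, -0.080. Subunit c, which forms the rotating ring, is encoded by 3 genes with the same mature protein. Atp5g3 gave 41.9% to 45.6% of their summed TPM, Atp5g1 28.6% to 32.2% and Atp5g2 25.2% to 27.9%, and this order held in every library.

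**Figure D2:**
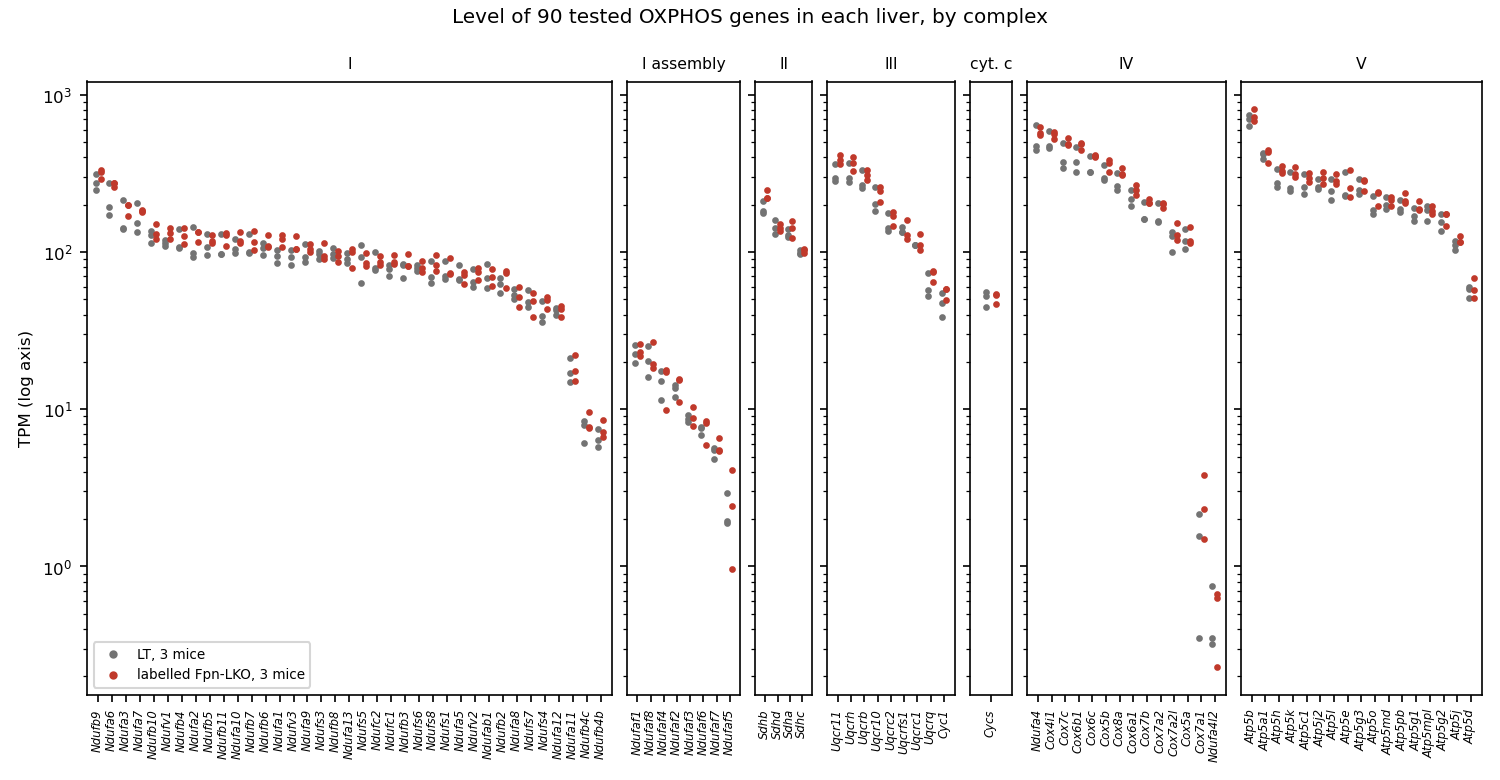
Deposited TPM (y axis, log scale) of 90 of the 91 tested members in each liver, ordered by mean TPM within each complex (x axis). Grey points are 3 LT mice and red points 3 mice labelled Fpn-LKO. Levels span from under 1 TPM for Ndufa4l2 to 714 TPM for Atp5b, and red and grey points overlap for most genes.

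Iron-bearing subunits were examined as a group because the deleted gene exports iron. The 7 iron-sulphur genes reported here (Ndufs1, Ndufs7, Ndufs8, Ndufv1, Ndufv2, Sdhb and Uqcrfs1) had 4 positive and 3 negative values and a median of 0.032, which was -0.037 without LT replicate 2 and 0.0079 without Fpn-LKO replicate 3. The 4 haem-bearing members (Cyc1, Cycs, Sdhc and Sdhd) had a median of -0.075, with 1 positive and 3 negative values, and a median of 0.022 without LT replicate 3. Ndufs1, the largest iron-sulphur subunit of complex I, had 174, 151 and 172 CPM in LT livers and 163, 169 and 157 CPM in LKO-labelled livers. Ndufv2, next to the site of NADH oxidation, had 85.2, 73.1 and 86.7 CPM in LT livers and 82.8, 81.2 and 86.5 CPM in LKO-labelled livers. Both pairs of groups overlapped, as did all 11 except Sdhb.

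The methods list qPCR primers for 6 members. By qPCR, the study reported that oxidative phosphorylation genes were expressed less in livers of HFD-fed Fpn-LKO mice. That qPCR used more mice per group than the sequencing and another method, and its values for single genes were not compared here. In the sequencing data Ndufs1, Ndufv2, Sdhb, Cycs, Cox5b and Atp5o had log2 fold changes of -0.023, 0.032, 0.18, -0.092, 0.11 and 0.10, with a median of 0.068. Cox5b, a zinc-binding subunit of complex IV, had 140 ± 8.42 CPM in LT livers and 151 ± 5.95 CPM in LKO-labelled livers (SD, n = 3 each). Atp5o, the stalk protein named for its oligomycin sensitivity, had 119 ± 9.55 and 128 ± 10.4 CPM. Of the 6 values 4 were positive and 2 negative, and 0 had an adjusted p under 0.05 by edgeR's test. All 6 intervals lay within 1.5-fold in both directions.

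Libraries differed among themselves more than the groups did. LT replicate 2 was the lowest of the 6 libraries for 57 of 91 members (62.6%), against 15.7% of all genes tested and 20.1% of genes with at least 20 CPM. The median member deviated from its own mean over libraries by 0.014, -0.15 and 0.064 in LT replicates 1 to 3 and by 0.050, -0.00051 and 0.032 in LKO-labelled livers. Without LT replicate 2 the median log2 fold change of the members turned from 0.040 to -0.010. The summed level of all 97 members was 9778, 8956 and 10330 CPM in LT livers and 10249, 9640 and 9928 CPM in LKO-labelled livers, 2.59% higher in the second group on average and well within the spread of LT. On the deposited TPM scale the same sum was 11.0% higher, at 13749 ± 1736 TPM in LT livers and 15263 ± 992 TPM in LKO-labelled livers. Small structural RNAs, which enter the TPM scale, took 7.65% to 8.76% of counts in LT and 10.2%, 3.29% and 4.49% in LKO-labelled livers, and their part in this shift was not tested.

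**Figure D3:**
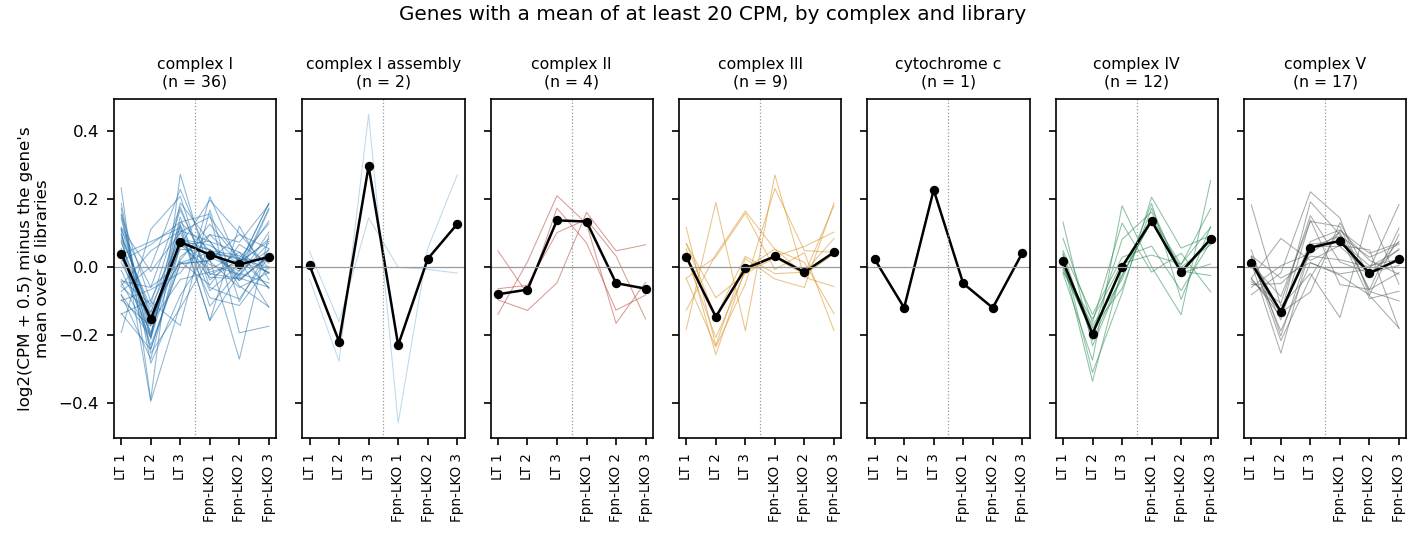
Deviation of each gene from its mean over the 6 libraries, as log2(CPM + 0.5) (y axis), in each library (x axis) and complex (panels), for members with a mean of at least 20 CPM. Thin lines are genes and black points medians. The median lies lowest in LT replicate 2 for complexes I, III, IV and V, and for complex IV all 12 lines do.

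Transcript length moved with some of these values. The members are short, with a median of 865 bases, against 2914 for all genes tested. Across 87 members with a length and a mean of at least 1 CPM, length and log2 fold change had a Spearman correlation of -0.29, against -0.10 across 11399 genes. Deviations in LT replicate 2 correlated with length by 0.33 across members and 0.24 across genes. In LT replicate 3 the correlation was 0.36 across members and -0.11 across genes, and in LT replicate 1 it was -0.26 and 0.035. In LKO-labelled livers it lay between -0.19 and -0.060 across members and between -0.14 and 0.062 across genes. Members and all genes thus went the same way in LT replicate 2 and opposite ways in the other LT libraries. The 50 members under 1000 bases had a median log2 fold change of 0.058 and the 37 longer ones 0.027, beside 0.048 and 0.0075 for all genes of those lengths. For some members the listed length does not go with the deposited TPM, which is scaled to length. Atp5g1, listed at 4715 bases, had a mean of 109 CPM and 172 TPM in LT livers. Ndufa11, listed at 545 bases, had 37.0 CPM and 17.7 TPM. The points share libraries and depth, genes are not independent replicates, and the part of length in the results was not tested.

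**Figure D4:**
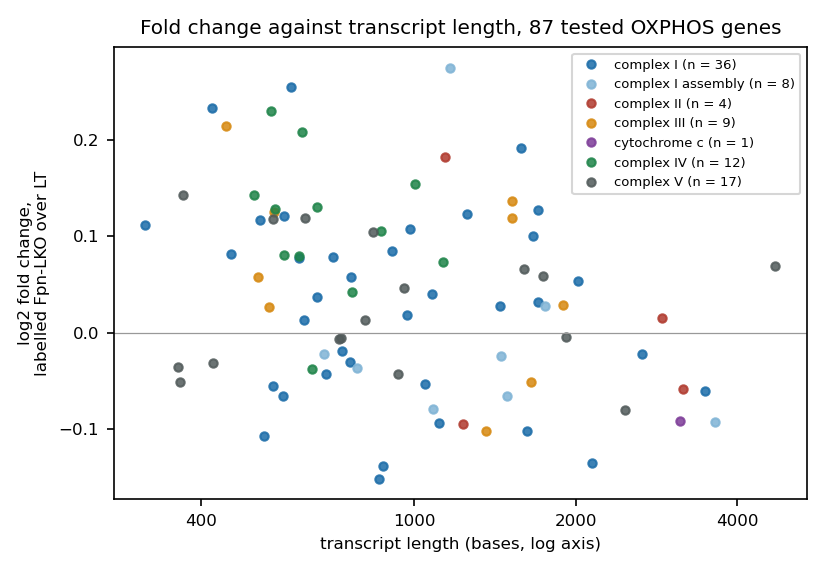
Log2 fold change, LKO-labelled over LT (y axis), against transcript length in bases (x axis, log scale) for 87 tested members with a mean of at least 1 CPM, coloured by complex. Length is that of the longest GENCODE transcript, which need not be the one expressed. Values above 0.2 come from Ndufa1, Ndufa6, Uqcr11, Cox6b1, Cox7c and Ndufaf5, with transcripts of 419 to 1166 bases, and the Spearman correlation is -0.29.

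The 13 subunits encoded in mitochondrial DNA form the partners of the nuclear genes. None had an adjusted or an unadjusted p under 0.05 by edgeR's quasi-likelihood test, 8 values were positive and 5 negative, and the median log2 fold change was 0.029. ND5, a proton-pumping subunit of complex I, had the largest value, 0.34, with 78.0, 88.5 and 47.0 CPM in LT livers and 57.7, 105 and 108 CPM in LKO-labelled livers. COX1, the catalytic core of complex IV, had 10486, 10422 and 8467 CPM in LT livers and 9686, 9299 and 9475 CPM in LKO-labelled livers. Their order over libraries differed from that of the nuclear genes. LT replicate 3 was the lowest library for 11 of 13, and the median deviation was 0.054, 0.21 and -0.37 in LT and -0.20, 0.080 and 0.12 in LKO-labelled livers. LT replicate 2 was thus the lowest library by the median of the nuclear subunits and the highest by that of the mitochondrial ones.

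Factors that build or regulate the chain gave 2 genes below the unadjusted threshold. Among 42 assembly factors whose names fall outside the rule, the median log2 fold change was 0.011 and 0 passed the adjusted threshold. Tmem242, an assembly factor of the ATP synthase, had 23.6, 21.1 and 25.7 CPM in LT livers and 30.6, 31.4 and 28.2 CPM in LKO-labelled livers (log2 fold change 0.36, unadjusted p = 0.0162, adjusted p = 0.982). Cox19, a copper-handling factor for complex IV, had 20.9, 18.2 and 22.3 CPM in LT livers and 25.8, 24.4 and 26.9 CPM in LKO-labelled livers (log2 fold change 0.33, unadjusted p = 0.0252, adjusted p = 0.982 by the edgeR test). Neither gene overlapped between the groups, and the 2 of 42 stand beside 4.8% of all genes tested. Of 18 regulators of mitochondrial biogenesis 17 were tested and 0 had an unadjusted p under 0.05, with a median of 0.042. Ppargc1a, which encodes PGC-1α, had 7.31, 4.23 and 2.92 CPM in LT livers and 8.76, 7.13 and 5.22 CPM in LKO-labelled livers, with overlap (log2 fold change 0.54, standard error 0.35, adjusted p = 0.982).

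Other gene groups put the members' values in context. Cytosolic ribosomal proteins (81 tested) had a median log2 fold change of -0.012, mitochondrial ribosomal proteins (78) 0.00013 and proteasome subunits (38) 0.053. By edgeR's quasi-likelihood test, 1 of the cytosolic ribosomal genes had an adjusted p under 0.05 (0.029, higher in LKO-labelled livers), beside 0.0232% of all genes tested. The other 2 lists had 0. LT replicate 2 was the lowest library for 47 of the 81 cytosolic ribosomal proteins, 29 of the 78 mitochondrial ones and 6 of the 38 proteasome subunits. It was thus the most frequent lowest library for both ribosomal lists, whereas for the proteasome that was LT replicate 3, with 26 of 38 subunits (68.4%).

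**Figure D5:**
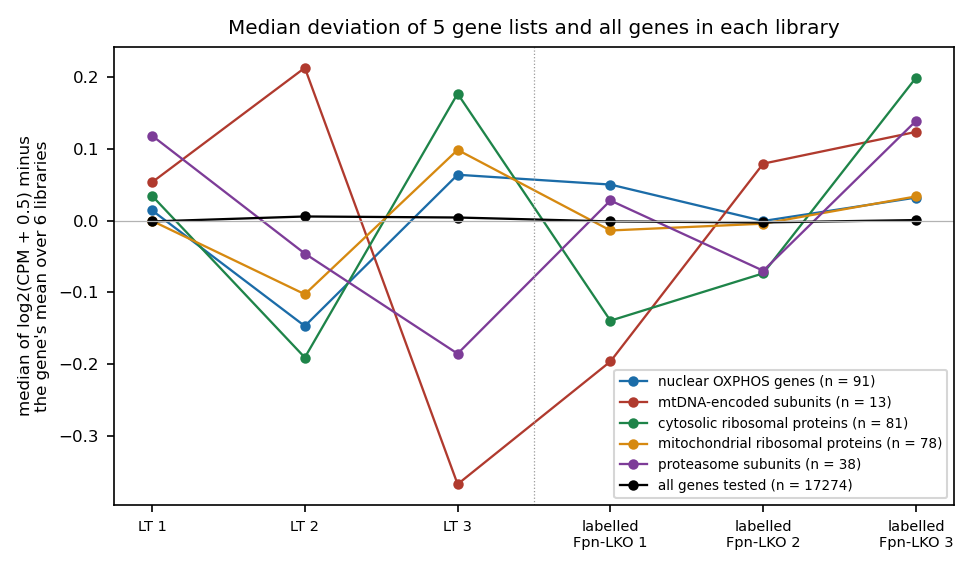
Median deviation from each gene's mean over 6 libraries, as log2(CPM + 0.5) (y axis), in each library (x axis), for nuclear OXPHOS genes, subunits encoded in mitochondrial DNA, 3 other gene lists and all genes tested. The nuclear OXPHOS line lies at -0.15 in LT replicate 2, where the mitochondrial line lies at 0.21, and stays between -0.00051 and 0.064 elsewhere.

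Counts of several members carry uncertainty from similar sequences. Of 95 members with a GENCODE transcript, 49 share at least 100 bases at 90% identity or more with a transcript of another gene, among them Cycs, Uqcr11, Uqcrh, Cox7c, Atp5k, Ndufa1, Ndufa13, Atp5g1 and Atp5g2, whereas Sdhb and Ndufa8 were not among them. How reads were divided among such copies is not given in the sources used here. Ndufb4 has the near copies Ndufb4b and Ndufb4c, which took 4.79% to 5.39% and 5.09% to 6.66% of the summed TPM of the 3 genes. In whole liver, fewer cells of a type and less RNA per cell cannot be told apart.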

How the data were processed

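Liver RNA of 3 LT and 3 Fpn-LKO mice was sequenced, with 1 library per mouse, and groups and replicate numbers are those of the sample labels. The labels name an mRNA kit, whereas the methods describe rRNA-depleted total RNA. Per the labels, the submitters' processing notes name bcl2fastq 2.20.0, FastQC 0.11.7, HISAT2 2.1.0, Bowtie2 2.3.4.1 and StringTie 2.1.3b and the build mm10. The authors deposited StringTie read counts per gene, which derive from coverage and are not normalised, and FPKM and TPM. Deposited TPM, scaled to length with the same total in each library, was used for levels. FPKM was not used.

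The unaltered counts went into edgeR 4.0.16 under R 4.3.3 (quasi-likelihood test, TMM scaling, genes with 0 reads in more than 1 library left out, Benjamini-Hochberg adjustment over 17274 genes, threshold 0.05). CPM are counts divided by TMM-scaled library sizes. Standard errors of log2 fold changes come from the F statistic, and intervals cover 95%. No pair of libraries of a group held the same counts within sampling noise, and p-values measure only the spread between these mice. Deviations used log2(CPM + 0.5). Coordinates come from RefSeq (GRCm38), and lengths are of the longest GENCODE transcript a row names. Near copies were searched with BLAST 2.17.0. Tables and figures used Python 3.11.15 with pandas 2.3.3.

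Members and lists were chosen with earlier results of these data known. Genes named were the qPCR targets, iron-bearing subunits, the highest, most raised and most lowered member of each complex with a mean of at least 1 CPM, members with an unadjusted p under 0.05, tissue-restricted isoforms with their partners, Slc40a1 and Tfrc, and up to 2 genes of each other list with the smallest p, beside the mitochondrial subunits. Ndufa13, Uqcrh and the genes only counted or shown as examples were chosen after their values were seen. Single values of 1 tested member, which also stays out of the iron-sulphur group, are not reported here, but it is included in counts and medians over all members and over its complex. Alternatives were RLE size factors, exactTest, DESeq2 1.42.0, all genes with at least 1 read, filterByExpr, a replicate block, limma 3.58.1 on log2 TPM with a pseudocount of 1 or 0.1 (mean TPM 1 or more), and leaving out each mouse.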

Additional observations from a re-analysis of the deposited data

How the results depend on the processing

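The 81 members with a mean of at least 20 CPM had no fewer than 964 reads in any library, whereas the isoforms near 0 reads were limited by counting. Some other tested members had few reads, such as Ndufb4b with 99 to 130, and the part of depth in the results was not tested. No member passed the adjusted threshold in any of the 14 alternatives (smallest adjusted p, 0.202 for Cox6b2 and 0.839 for any other member). The count at an unadjusted p under 0.05 rose from 0 to 1, Cox6b2, with all genes with at least 1 read, with filterByExpr and with both limma fits, which keep that gene, beside 4.15%, 4.89%, 4.95% and 4.82% of all genes. Leaving out 1 mouse gave 0 to 1, namely Ndufa6 without LT replicate 1, Ndufs5 without LT replicate 2 and Ndufa1 without LT replicate 3, beside 4.57%, 3.61% and 5.46% of all genes. The median log2 fold change of the members ran from -0.010 to 0.078 on leaving out each mouse and was 0.123 with limma on log2(TPM + 1) and 0.124 on log2(TPM + 0.1), where the medians of all genes were 0.083 and 0.097. With limma on log2(TPM + 1) the negative medians of the assembly factors, the complex I core, the F1 head and the haem-bearing members turned to 0.043, 0.070, 0.061 and 0.020. Calls over all genes at the adjusted threshold rose from 4 to 63 with exactTest and 72 with DESeq2, and were 5 to 7 with the other filters and the limma fits.

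Of the 586 alternative values of 42 named members that the main comparison tested, 60 had the other sign, none of them called, and the cause was not tested. Atp5b gave 0.0012 with RLE size factors and 0.0012 with DESeq2, and Ndufa4l2 gave 0.0032 and 0.0027. With limma on log2(TPM + 1) and log2(TPM + 0.1), Ndufs1 gave 0.070 and 0.071, Cycs 0.0062 and 0.0063, Sdhc 0.034 and 0.034, Ndufs5 0.015 and 0.016, Ndufaf1 0.064 and 0.067, Ndufaf4 0.0033 and 0.0017, Cox5a 0.059 and 0.059, Atp5b 0.092 and 0.092, Atp5a1 0.012 and 0.012, Atp5g2 0.092 and 0.093, and Atp5g3 0.085 and 0.085, while Ndufaf5 gave -0.042 on the second scale. On leaving out each mouse, the values ran from -0.080 to 0.016 for Ndufs1, -0.29 to 0.0098 for Ndufs5, -0.10 to 0.023 for Ndufs7, -0.037 to 0.078 for Ndufv2, -0.053 to 0.093 for Sdha, -0.14 to 0.038 for Sdhc, -0.17 to 0.0068 for Cycs, -0.10 to 0.048 for Ndufaf1, -0.26 to 0.14 for Ndufaf4, -0.0054 to 0.17 for Ndufa4, -0.27 to 0.50 for Ndufa4l2, -0.010 to 0.086 for Cox4i1, -0.12 to 0.020 for Cox5a, -0.041 to 0.19 for Cox7a2l, -0.052 to 0.076 for Atp5b, -0.18 to 0.017 for Atp5a1, -0.076 to 0.067 for Atp5g2 and -0.056 to 0.033 for Atp5g3.

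Samples with the same number were not treated as pairs in the main comparison. Deviations of LT and Fpn-LKO replicates 1, 2 and 3 correlated by 0.21, 0.014 and 0.096. Across different numbers the correlations ran from -0.16 to 0.081, and not every sample correlated best with its own number. With 3 mice a group, these correlations cannot show whether mice of the same number shared a litter, cage or handling. With the replicate block, 0 members passed either threshold, the median log2 fold change was 0.043, and calls over all genes went from 4 to 0.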

Other observations

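Of the rows that match the name pattern, 12 are not protein-coding, and 6 of these were tested. Ndufs5-ps, a transcribed pseudogene of the complex I subunit Ndufs5, had 7.05, 13.9 and 5.41 CPM in LT livers and 17.6, 16.9 and 15.1 CPM in LKO-labelled livers, without overlap between the groups (log2 fold change 0.91, unadjusted p = 0.0248, adjusted p = 0.982 from the quasi-likelihood test of edgeR, Benjamini-Hochberg adjusted). Ndufs5 itself had 40.1, 25.9 and 41.3 CPM in LT livers and 33.6, 33.3 and 32.7 CPM in LKO-labelled livers, a log2 fold change of -0.11. Ndufs5 shares up to 319 aligned bases with 1 other gene, and whether that gene is Ndufs5-ps was not examined. Ndufb1-ps, a row for the complex I subunit b1 that the table marks as a noncoding RNA, had 58.4, 49.6 and 57.5 CPM in LT livers and 57.0, 59.3 and 61.5 CPM in LKO-labelled livers, with LT replicate 2 the lowest, as for most coding members.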
